A study of Mus musculus with 6 samples.

Results

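The interleukin-1 family with Il33 was followed across 6 mouse tumours, by the genes Il33, Il1rl1, Il1a, Il1b, Il1rn, Il1r1, Il1r2, Il1rap, Il18 and Il18bp. These 10 ligands, receptors, antagonists and decoys were taken by symbol, through array probe sets annotated to exactly 1 gene. A probe set of that kind was present for 9 of the 10, with 13 probe sets among 22690 in all, and Il1rl1 had none. The genes were chosen by symbol, but after their log2 differences between Bptf KD and Control had been seen in these same tumours. The members' values in that contrast, with the calls and intervals given below, are therefore a description. No conclusion rests on a member being called. The tumours grew from 4T1, a mouse mammary carcinoma line, in 3 Control and 3 Bptf KD tumours, with 1 expression array per tumour. Bptf KD cells had received short hairpin RNAs against Bptf, the largest subunit of the chromatin remodelling complex NURF, by MMLV retrovirus; the sources used here do not state what the Control cells carried, nor whether the cells were a clone or a pool. Both groups were started from 10000 cells in the fourth mammary fat pad of mice that the labels call Ifrg2r -/- (NSG), a strain without mature T, B and natural killer cells, and were taken on day 21, with necrotic tissue dissected away where present. Host age, and whether each tumour came from its own mouse, are likewise not stated.

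Interleukin-1 alpha and interleukin-1 beta bind the receptor Il1r1, which then recruits the accessory chain Il1rap and signals through Myd88 and Irak kinases to NF-kB. Il1rn competes for the same receptor without signalling, and Il1r2 is a decoy that binds ligand without a signalling domain. Interleukin-33 is stored in the nucleus of stromal, endothelial and epithelial barrier cells and acts through Il1rl1, with Il1rap as the shared chain, on mast cells, innate lymphoid cells, regulatory T cells and macrophages. Interleukin-18 is held in check by the secreted binding protein Il18bp, and both interleukin-1 beta and interleukin-18 are cut to their active forms by caspase-1.

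The promoters of Il33, the member with the largest difference, and of the neighbouring genes Il1a and Il1b are shown because they let the 3 ligands be set side by side. Each window holds the 250 bases before a RefSeq transcription start in GRCm38.p6, on the strand of the gene, and Il33 has 2 such starts. Capitals mark matches, on either strand, to the letters TATAAA, to the AP-1 letters TGANTCA, to the C/EBP letters TTNNGCAA, to kappaB (GGG and CC with any 5 bases between them) or to the CRE letters TGACGTCA.
Il33, start 1 (chr19:29924863-29925112, + strand): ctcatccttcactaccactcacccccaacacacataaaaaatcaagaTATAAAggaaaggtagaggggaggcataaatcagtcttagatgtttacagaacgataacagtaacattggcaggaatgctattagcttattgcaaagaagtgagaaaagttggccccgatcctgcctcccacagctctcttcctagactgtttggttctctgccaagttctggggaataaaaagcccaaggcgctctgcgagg
Il33, start 2 (chr19:29945540-29945789, + strand): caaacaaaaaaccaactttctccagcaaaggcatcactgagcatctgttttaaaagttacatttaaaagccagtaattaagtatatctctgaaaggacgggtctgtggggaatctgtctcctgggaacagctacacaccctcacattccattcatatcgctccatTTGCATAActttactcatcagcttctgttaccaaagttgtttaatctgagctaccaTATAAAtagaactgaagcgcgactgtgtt
Il1a (chr2:129309973-129310222, - strand): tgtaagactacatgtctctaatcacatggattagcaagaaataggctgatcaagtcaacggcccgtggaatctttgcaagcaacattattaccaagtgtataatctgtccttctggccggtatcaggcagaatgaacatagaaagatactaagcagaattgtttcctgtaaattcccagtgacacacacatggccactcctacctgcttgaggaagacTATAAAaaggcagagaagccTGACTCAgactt
Il1b (chr2:129371140-129371389, - strand): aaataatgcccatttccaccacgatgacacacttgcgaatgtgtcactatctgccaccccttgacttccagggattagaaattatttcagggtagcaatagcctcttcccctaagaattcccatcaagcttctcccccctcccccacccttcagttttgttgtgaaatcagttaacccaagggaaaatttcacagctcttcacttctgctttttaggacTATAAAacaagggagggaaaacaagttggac

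All 4 windows hold TATAAA, which ends 26 bases before the start in Il1a, 25 in Il1b, 23 at the second Il33 start and 197 at the first. Among 32851 windows of the same length, 12.4% hold it. The AP-1 letters are present in Il1a alone of these 4, ending 5 bases before the start, against 6.75% of all windows. C/EBP letters occur at the second Il33 start, 77 bases before it, against 9.56% of all windows. No kappaB or CRE match lies in these 4 windows, while 45.8% and 1.55% of all windows hold one. Of the 15 windows of the 10 members, 4 hold kappaB letters. Such matches describe letters and not sites. The array reads Il33 by a single probe set and does not tell the 2 starts apart. In the order of RefSeq genes Il1a is followed by Il1b, and Il1r2, Il1r1, Il1rl2, Il1rl1, Il18r1 and Il18rap stand in a row.

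The deposited values are log2 expression levels, and array medians ran from 7.60 to 7.70. Bptf was read first as the check of the labels. Its brightest probe set gave 10.69, 9.77 and 10.59 in Control 1, 2 and 3 and 9.60, 9.56 and 9.99 in Bptf KD 1, 2 and 3. Bptf KD minus Control was -0.63 there and was not called in the fit described below (limma adjusted p = 0.372). Its other probe sets differed by -0.57, -0.80 and -0.17. Without the second Control the brightest differed by -0.92 and was called. In the second Control the target went against the label, with a level of 7.59 on another probe set where the Bptf KD tumours had 8.37 to 9.15, and it is called the tumour labelled Control 2. Across genes it correlated with the other 5 tumours at 0.925 to 0.942, while those 5 correlated among themselves at 0.964 to 0.988. Every difference below, given as log2 Bptf KD minus Control, counts it as a Control. Krt8, a simple epithelial keratin, had log2 levels of 13.9 to 14.2 in every tumour, but the mammary tumour epithelium markers as a list did not stay level: 11 of 12 were positive, with a median of 0.70 and 0 called. Their list means were 9.63 to 10.3 in Control and 10.5 to 10.7 in Bptf KD, without overlap, and Epcam, an epithelial adhesion protein, differed by 0.96. Of 14 markers of T, B and natural killer cells 11 had a probe set and 4 had a mean above the level of 6.09 below which probe sets were taken as dim. The highest of them, Cd4, reached 7.35.

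Il33 was the member that fell. Its log2 levels were 10.60, 10.63 and 11.11 in Control 1, the tumour labelled Control 2 and Control 3, and 8.86, 8.41 and 8.64 in Bptf KD 1, 2 and 3. Every Bptf KD tumour lay well below every Control, and the lowest Control was 10.60 against a highest Bptf KD value of 8.86. The means were 10.78 ± 0.29 and 8.64 ± 0.23 (SD, n = 3 each), a difference of -2.14 (SE 0.19, 95% interval -2.60 to -1.69) and a 4.42-fold lower level. Ordered by their differences, 9258 genes placed Il33 33rd from the lowest. In the limma fit over all genes, with Benjamini-Hochberg adjustment and a threshold of 0.05, it was the 1 member of the 9 that was called. Over all genes 75 were called (0.810%), 61 of them lower (0.659%). Without the tumour labelled Control 2 the difference was -2.22 and the call held. With any 1 Bptf KD tumour left out the call ended, at differences of -2.26, -2.03 and -2.15 without Bptf KD 1, 2 and 3, where limma called 2, 6 and 0 genes in all. These arrays measured whole pieces of tumour, so that fewer cells of a type and less RNA per cell cannot be told apart.

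**Figure D1:**
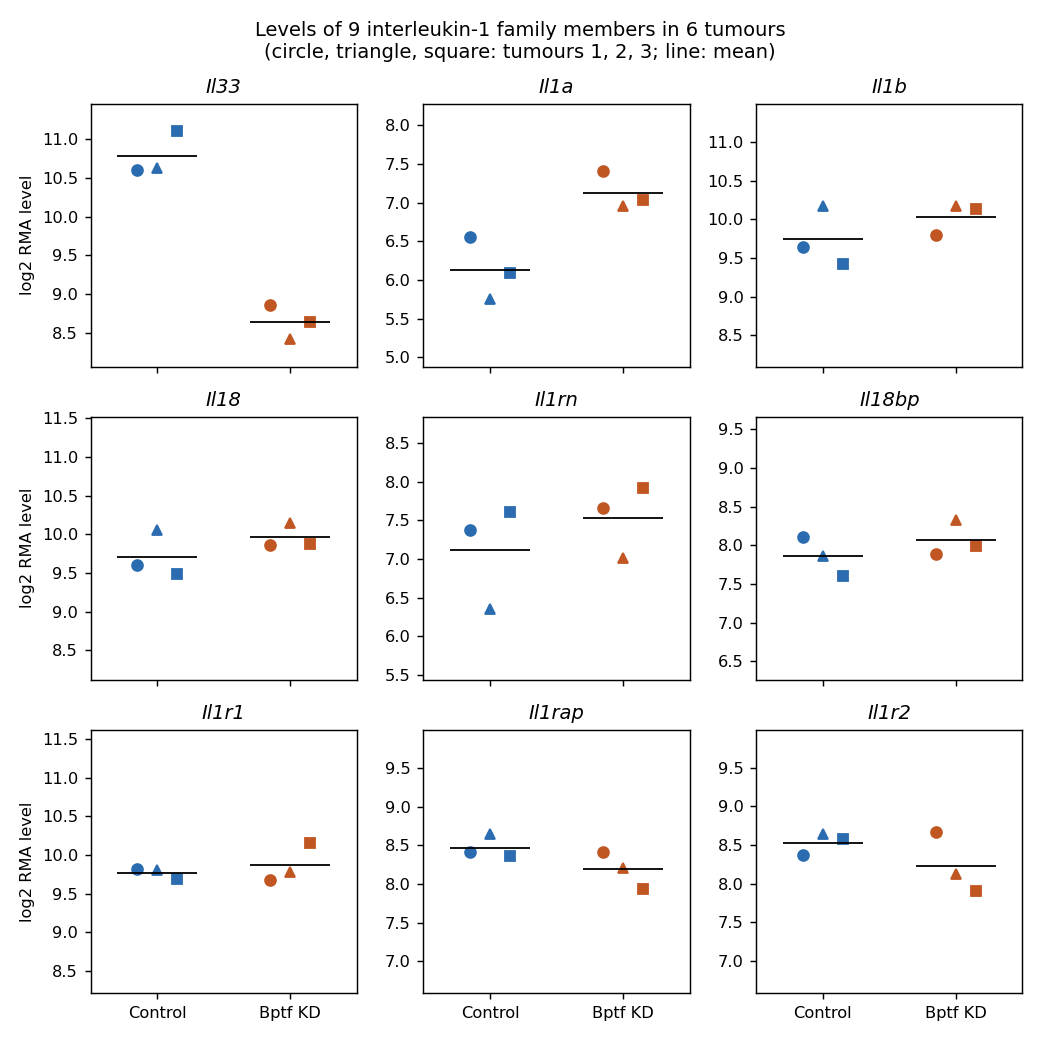
Log2 RMA level (y axis) of 9 interleukin-1 family members in 3 Control (blue) and 3 Bptf KD (orange) tumours, each on its brightest probe set; circles, triangles and squares are tumours 1, 2 and 3, lines are group means, and all panels span the same number of log2 units. Il33 drops from 10.60 to 11.11 in Control to 8.41 to 8.86 in Bptf KD, Il1a is the other member without overlap, and the remaining 7 overlap.

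Il1a, which makes interleukin-1 alpha, lay the other way. Its levels were 6.56, 5.75 and 6.09 in Control 1, the tumour labelled Control 2 and Control 3, and 7.41, 6.95 and 7.03 in Bptf KD 1, 2 and 3. All 3 Bptf KD tumours were above all 3 Controls, and the value of the tumour labelled Control 2 was below the dim level of 6.09. The means were 6.13 ± 0.41 and 7.13 ± 0.25 (SD, n = 3 each), a difference of 1.00 (SE 0.23, 95% interval 0.44 to 1.55). In size it was the 59th highest difference of 9258 genes, and it was not called. Part of a level this low is background that the values do not separate, so that its size is uncertain. Groups did not overlap in 20.0% of all genes tested, with 11.8% higher and 8.18% lower in Bptf KD, beside 2 of the 9 members, Il1a and Il33. Without the tumour labelled Control 2 the difference of Il1a was 0.805.

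Il1b, the secreted ligand of activated myeloid cells, overlapped between the groups. Its levels were 9.64, 10.17 and 9.42 in Control 1, the tumour labelled Control 2 and Control 3, and 9.79, 10.17 and 10.13 in Bptf KD 1, 2 and 3. The tumour labelled Control 2 equalled the highest Bptf KD tumour, and the other 2 Controls were the lowest of the 6. The difference was 0.29 (SE 0.22, 95% interval -0.23 to 0.81), and it was 0.50 without that tumour. Il18, the other ligand cut by caspase-1, gave 9.60, 10.05 and 9.49 in the Controls and 9.86, 10.15 and 9.87 in the Bptf KD tumours, with the same tumour high among the Controls. Its difference was 0.25 (SE 0.18, 95% interval -0.18 to 0.68), and 0.415 without the tumour labelled Control 2. Neither was called, and both intervals hold zero.

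The antagonist Il1rn was read by 3 probe sets, which differed by 0.42, 0.32 and 0.04. On the brightest, levels were 7.38, 6.36 and 7.61 in the Controls and 7.66, 7.02 and 7.92 in the Bptf KD tumours. The second tumour of each group was its lowest, and the groups overlapped. The difference of 0.42 (SE 0.37, 95% interval -0.47 to 1.30) became 0.04 without the tumour labelled Control 2. Il18bp, which sequesters interleukin-18, gave 8.11, 7.86 and 7.60 in the Controls and 7.88, 8.32 and 7.99 in the Bptf KD tumours, a difference of 0.21 (SE 0.18, 95% interval -0.23 to 0.64). Its groups overlapped as well, and neither inhibitor was called.

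Of the receptor chains, the signalling receptor Il1r1 gave 9.82, 9.80 and 9.69 in the Controls and 9.68, 9.78 and 10.15 in the Bptf KD tumours. Bptf KD 3 stood above the other 5, which lay within 9.68 to 9.82, and the difference of 0.10 (SE 0.15, 95% interval -0.26 to 0.46) turned to -0.04 without it. The shared chain Il1rap gave 8.41, 8.64 and 8.36 in the Controls and 8.41, 8.21 and 7.94 in the Bptf KD tumours on its brightest probe set. Bptf KD 3 was the lowest there, and Bptf KD 1 equalled Control 1. Its difference was -0.28 (SE 0.16, 95% interval -0.66 to 0.10), against -0.07 and 0.23 on its other 2 probe sets, the last of which was dim. The decoy Il1r2 gave 8.37, 8.64 and 8.57 in the Controls and 8.67, 8.12 and 7.90 in the Bptf KD tumours, a difference of -0.30 (SE 0.21, 95% interval -0.80 to 0.21). Bptf KD 1 was the highest of all 6 for this gene and Bptf KD 3 the lowest. None of the 3 chains was called, and the interval of each reaches from a lower to a higher level in Bptf KD.

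Over the family, 6 of the 9 measured genes had positive differences and 3 negative ones, with a median of 0.21, beside a median of 0.06 over all 9258 genes. Of all genes 5514 had positive differences and 3687 negative ones. That family median was 0.115 without the tumour labelled Control 2 and 0.08 without Control 3. All 9 passed the filter on dim probe sets, which used the mean over the 6 arrays. The 5th and 95th percentiles of the differences of all genes were -0.56 and 0.48. Il33 and Il1a lay outside that range and the other 7 members within it, as the plot of differences shows.

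**Figure D2:**
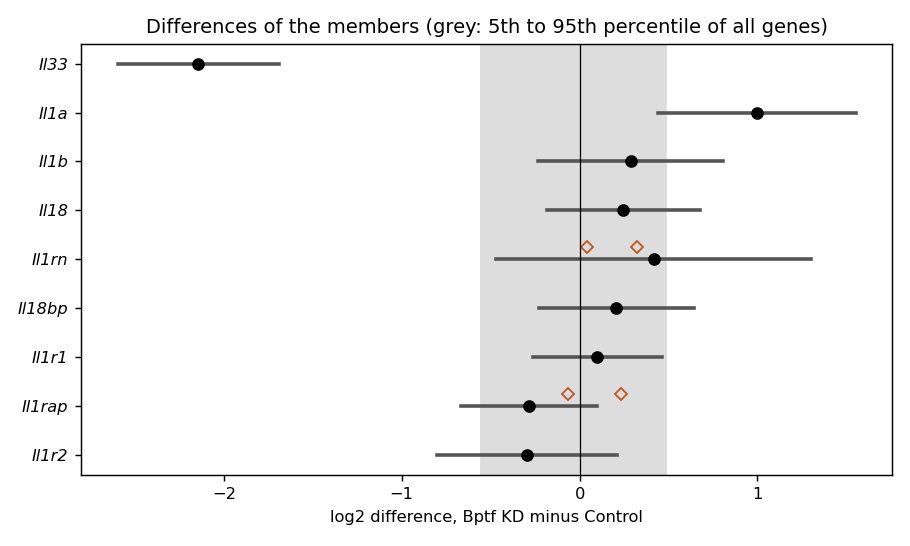
Log2 difference, Bptf KD minus Control (x axis), of each member on its brightest probe set (black points) with its 95% interval from limma (grey bars, n = 3 each); orange diamonds are the members' other probe sets, and the grey band runs from -0.56 to 0.48. The interval of Il33 lies wholly below the band, that of Il1a lies above 0, and the other 7 intervals hold 0.

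Other genes of the pathway were counted from 5 lists of 112 genes in all, of which 84 were measured above the dim level. Limma called 2 of the 84, both lower in Bptf KD, and 0 higher (0.810% of all genes were called, in either direction). Before adjustment, p was under 0.05 for 9 genes higher and 10 lower, beside 708 and 539 of all 9258. Median difference over the 84 was 0.11, beside 0.06 for all genes. Without the tumour labelled Control 2 limma called 7 of them, among 412 over all genes; without Control 1 it called 4, and without Control 3 1. With a Bptf KD tumour left out it called none.

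The remaining receptors and ligands of the family were dim or overlapped. Of 11 listed, 10 had a probe set and 4 were measured, with 0 called and 0 at an unadjusted p under 0.05. Il18rap, the accessory chain of the interleukin-18 receptor, differed by 0.24 and Sigirr, an inhibitory receptor of the family, by 0.00. Il1f10, or interleukin-38, differed by -0.13 and Il1f5, the antagonist of interleukin-36, by -0.42. Il1f5 reached 7.19 in the tumour labelled Control 2, against 5.92 to 6.06 elsewhere, and differed by -0.02 without it. The levels elsewhere were all below the dim level of 6.09, so that Il1f5 passed the filter only through that tumour. The means of Il18r1, Il1rl2 and the interleukin-36 genes Il1f6, Il1f8 and Il1f9 were below the dim level.

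Of the genes that process these cytokines 10 of 17 were measured, with a median of 0.13, and limma called 0; before adjustment p was under 0.05 for 3 genes on the higher side and 1 on the lower. Without the tumour labelled Control 2 the median was 0.24 and limma called 2, and without Bptf KD 1 the median was 0.085. Casp1, the caspase that cuts interleukin-1 beta and interleukin-18, gave 10.55, 10.72 and 10.47 in the Controls and 11.29, 11.23 and 10.81 in the Bptf KD tumours. The groups did not overlap, and the difference of 0.53 was not called (limma adjusted p = 0.241). Nek7, a partner of the inflammasome sensor Nlrp3, differed by 0.55 (limma adjusted p = 0.152), while Nlrp3 itself differed by 0.01 and Mefv, the pyrin sensor, by -0.33 (limma adjusted p = 0.349). Prtn3, a neutrophil serine protease, gave 7.66, 8.17 and 7.40 in the Controls and 9.21, 9.07 and 8.60 in the Bptf KD tumours. It differed by 1.22 (limma adjusted p = 0.0958, and 0.00225 to 0.320 across the alternatives) and was called without the tumour labelled Control 2 (1.43). Pycard, the adaptor of the inflammasome, differed by 0.29 and was called without that tumour as well. The other neutrophil serine proteases of this list, Elane and Ctsg, had means of 5.75 and 5.40, below the dim level. They, Pycard and Nlrp3 were chosen after their values were seen.

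Of the signalling genes downstream of the receptor 36 of 42 were measured, 27 positive and 9 negative (5514 and 3687 of all 9258 genes). The median of the 36 was 0.13, and limma called 0, with 1 at an unadjusted p under 0.05. The split became 22 to 14 and the median 0.06 once the tumour labelled Control 2 was left out (5181 to 4063 over all genes). The 1 gene was Tnip1, which restrains NF-kB with the ubiquitin-editing enzyme Tnfaip3, at 8.90 ± 0.20 in Control and 9.34 ± 0.16 in Bptf KD (SD, n = 3 each; limma adjusted p = 0.290). Ikbkg, the regulatory subunit of the kinase complex that frees NF-kB, differed by 0.28, the adaptor Tifa by 0.31 and the kinase Map2k4 by 0.22. The first adaptor Myd88 differed by -0.13, with levels of 9.81 to 10.03 in Control and 9.75 to 9.90 in Bptf KD. Myd88 was chosen after its values were seen.

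Response genes of interleukin-1 and NF-kB had differences of both signs. Of 25 measured, 12 were positive and 13 negative, with a median of -0.02 that took either sign as single tumours were left out (-0.07 without Bptf KD 1 to 0.035 without Bptf KD 2). Steap4, a metalloreductase induced by inflammatory cytokines and abundant in fat, fell from 10.07, 10.19 and 9.67 to 8.01, 7.72 and 7.68. No Bptf KD tumour reached the lowest Control, and the difference was -2.17 (SE 0.18; limma adjusted p = 0.00936), close in size to that of Il33. Mmp3, a stromal metalloproteinase, fell from 11.49, 11.44 and 12.12 to 10.22, 10.34 and 10.27, by a difference of -1.41 (SE 0.20; limma adjusted p = 0.0436). The call of Steap4 ended with any 1 Bptf KD tumour left out, at differences of -2.28, -2.13 and -2.11. Averaged over all its probe sets Steap4 differed by -1.16 and was called. That of Mmp3 ended in the same 3 fits, at -1.38, -1.44 and -1.40, and also without Control 1 (-1.50) or Control 3 (-1.19).

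The other 23 genes of that list were not called. Among its chemokines Cxcl2 differed by 0.88, Cxcl5 by 0.18, Ccl2 by -0.42 and Ccl7 by -0.46, all with overlap. The acute phase gene Saa3 differed by -1.28 and overlapped too. Cxcl1, a neutrophil attractant, gave 8.72, 7.98 and 8.13 in the Controls and 9.34, 9.42 and 9.68 in the Bptf KD tumours, with no overlap and a difference of 1.20 (limma adjusted p = 0.0673). Lcn2, a siderophore-binding protein of neutrophils and epithelia, gave 11.44, 8.34 and 9.65 against 12.72, 11.82 and 12.40, the highest difference of all 9258 genes at 2.50 (limma adjusted p = 0.211). The Controls spread over more than 3 log2 units for this gene. Hp, the haemoglobin scavenger haptoglobin, gave 11.94, 13.24 and 11.93 against 7.86, 10.05 and 9.42, a difference of -3.26 (limma adjusted p = 0.0762). Csf3, the granulocyte colony-stimulating factor, differed by 0.53 and Il6 by -0.81, where Il6 stood at 10.02 in the tumour labelled Control 2 against 6.88 to 8.15 elsewhere. Cxcl1 was called without Control 1 and without the tumour labelled Control 2, Lcn2 without Control 1, and Hp without the tumour labelled Control 2. All genes of this paragraph were chosen after their values were seen.

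Genes known to respond to interleukin-33, many of them in macrophages, had negative differences in 7 of 9 measured, with a median of -0.75. Limma called 0 of the 9. Before adjustment p was under 0.05 for 6 genes on the lower side and 1 on the higher, and 6 were lower without overlap (8.18% of all genes were). Cd163, a haemoglobin scavenger receptor of tissue macrophages, gave 10.02, 11.25 and 10.80 in the Controls and 8.93, 7.95 and 8.81 in the Bptf KD tumours. No Bptf KD tumour reached the Controls, and the difference was -2.13 (SE 0.38; limma adjusted p = 0.0639, and 0.00419 to 0.231 across the alternatives). It was called without Control 1 (-2.46) and without the tumour labelled Control 2 (-1.85). Mrc1, the mannose receptor, differed by -0.75, Retnla by -0.70 and the chemokine Ccl22 by -0.67, each without overlap (limma adjusted p from 0.0973 to 0.177). Arg1, arginase 1, lay the other way, at 12.67, 12.63 and 12.45 in the Controls and 13.12, 12.78 and 13.11 in the Bptf KD tumours, a difference of 0.42. The type 2 cytokines Il4, Il5, Il9 and Il13, also on this list, had means below the dim level. Arg1 was chosen after its values were seen. Without the tumour labelled Control 2 the median was -0.65, with 8 of 9 negative.

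**Figure D3:**
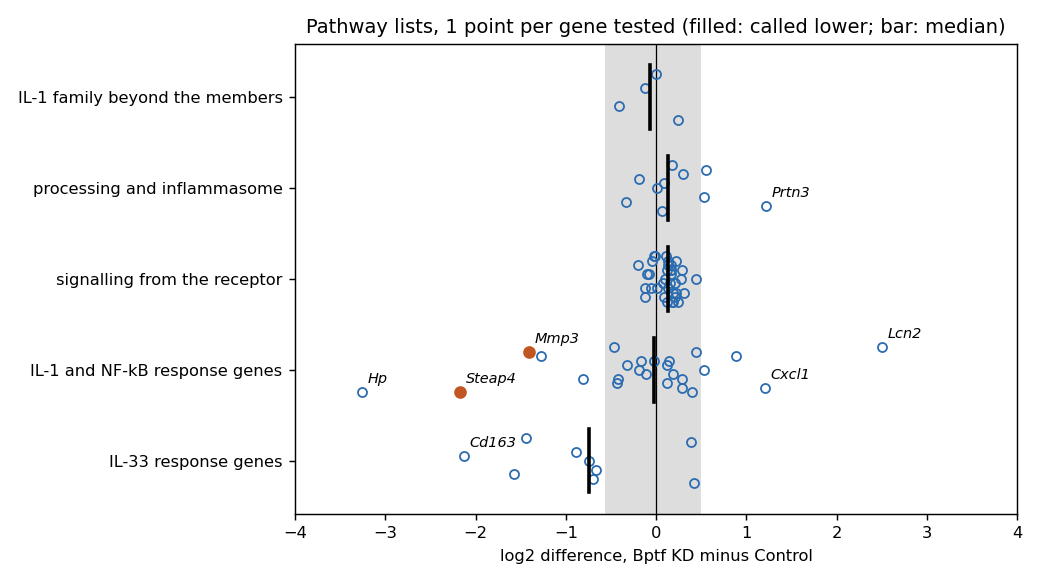
Log2 difference, Bptf KD minus Control (x axis), of every measured gene in 5 pathway lists (y axis), 1 point per gene; filled orange points were called lower by limma, open points were not called, black bars are list medians, and the grey band runs from -0.56 to 0.48. Steap4 and Mmp3 are the called genes, and the interleukin-33 list has the lowest median, -0.75.

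Markers of the cells that can make or answer these cytokines were read in the same arrays. Fibroblast markers were lower with Il33: 14 of 14 measured genes were negative, with a median of -0.90, and Col1a1, Col3a1, Dcn and Dpt fell (limma called 4 of 14, with 12 lower at an unadjusted p under 0.05). The mean of the list was 11.1 to 11.4 in Control and 10.0 to 10.2 in Bptf KD. Adipocyte markers were lower too, 12 of 12 negative with a median of -2.64 and 6 called. Among the called were Fabp4, a fatty acid carrier, at -2.85, and Lpl, lipoprotein lipase, at -3.27. The list mean was 9.34 to 10.1 in Control against 6.83 to 7.62 in Bptf KD. Cidec, which was called, Lep, Pparg and Adig had Bptf KD means of 5.34, 5.25, 5.67 and 5.51, below the dim level. They passed the filter only through the Controls, so their negative sign was set by that filter. With the lowest 50% of probe sets left out, 7 adipocyte markers were measured, with a median of -2.85 and 5 called lower. Among all 9258 genes, with every tumour kept, 61 were called lower (0.659%). The limma p before adjustment fell below 0.05 for 539 on that side. Limma called 8 fibroblast and 10 adipocyte markers when the tumour labelled Control 2 was left out, where 4.45% of all genes were called, 233 of them lower. Without Control 1 it called 2 and 6, and without Control 3 0 and 5. Without Bptf KD 1, 2 or 3 it called 0 fibroblast markers and 1, 3 and 0 adipocyte markers. Neither list overlapped between the groups, and Il33 did not either, so that the level of Il33 and the amount of fibroblast or fat tissue in a piece cannot be told apart from the group. The same holds for the other list means that did not overlap. Mammary tumour epithelium and neutrophils were higher in Bptf KD, the neutrophils only with Lcn2 counted. Dendritic cells (7.12 to 7.18 against 6.70 to 6.82) and pericytes and smooth muscle (8.69 to 8.99 against 8.45 to 8.63) were lower. The list means of the 4 measured markers of T, B and natural killer cells barely parted (6.53 to 6.70 against 6.43 to 6.51). These genes had means from 6.09 for Cd3d to 7.14 for Cd4, in hosts without mature cells of these types. Limma called 0 of them, and 0 had an unadjusted p under 0.05. Whether such cells differed was not tested. Endothelial markers, 12 measured, had a median of 0.07 and list means of 7.46 to 7.81 in Control and 7.54 to 7.59 in Bptf KD, which overlapped. Their median turned to -0.07, with 8 of 12 negative, without the tumour labelled Control 2. Keratinocyte markers set the tumour labelled Control 2 apart at a list mean of 9.65, against 6.85 to 7.24 in the other 5 tumours; its Il33 level was 10.63. The part of keratinocytes in the level of Il33 was not tested.

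Myeloid markers were set beside Il1b and the interleukin-33 response genes. Macrophage and monocyte markers, 15 measured, had a median of 0.19 and list means of 11.2 to 11.4 in Control and 11.1 to 11.4 in Bptf KD, which overlapped. That median was 0.015 without the tumour labelled Control 2 and 0.315 without Control 1. Cd163 and Mrc1 are on that list as well, and were its 2 markers lower without overlap. On the same list 4 were higher without overlap: Lyz2 by 0.26, C1qa by 0.26, C1qb by 0.40 and C1qc by 0.40. Limma called 0 of the 15. Neutrophil markers, 8 measured of 17, had a median of 0.33 and list means of 8.13 to 8.72 in Control and 8.95 to 9.13 in Bptf KD. Without Lcn2, which is on this list too, the means were 7.94, 8.77 and 7.91 in the Controls and 8.41, 8.75 and 8.50 in the Bptf KD tumours. The tumour labelled Control 2 then lay just above the highest Bptf KD tumour, and the other 2 Controls lay below all 3 Bptf KD tumours. With that tumour left out, and Lcn2 kept, the list median was 0.63, 7 of 8 markers were higher without overlap and limma called 2. In that setting 2556 of all 9258 genes were higher without overlap and limma called 412 (4.45%). The list median was 0.21 without Control 1, where limma called 1 (0.789% of all genes were called), and 0.16 without Control 3. S100a8, an abundant neutrophil protein, gave 9.49, 10.96 and 9.35 in the Controls and 10.20, 11.15 and 10.79 in the Bptf KD tumours, with the same tumours high and low as for Il1b. Cxcr2, Mpo, Ngp, Ltf and Mmp8 of the list had means below the dim level. The part of neutrophils in the levels of Il1b was not tested. Mast cell and basophil markers, which mark cells that carry the interleukin-33 receptor, had a list mean of 6.95 to 7.95 among the Controls, highest in the tumour labelled Control 2, and of 6.60 to 6.97 in Bptf KD. All 6 eosinophil markers with a probe set had means below the dim level.

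**Figure D4:**
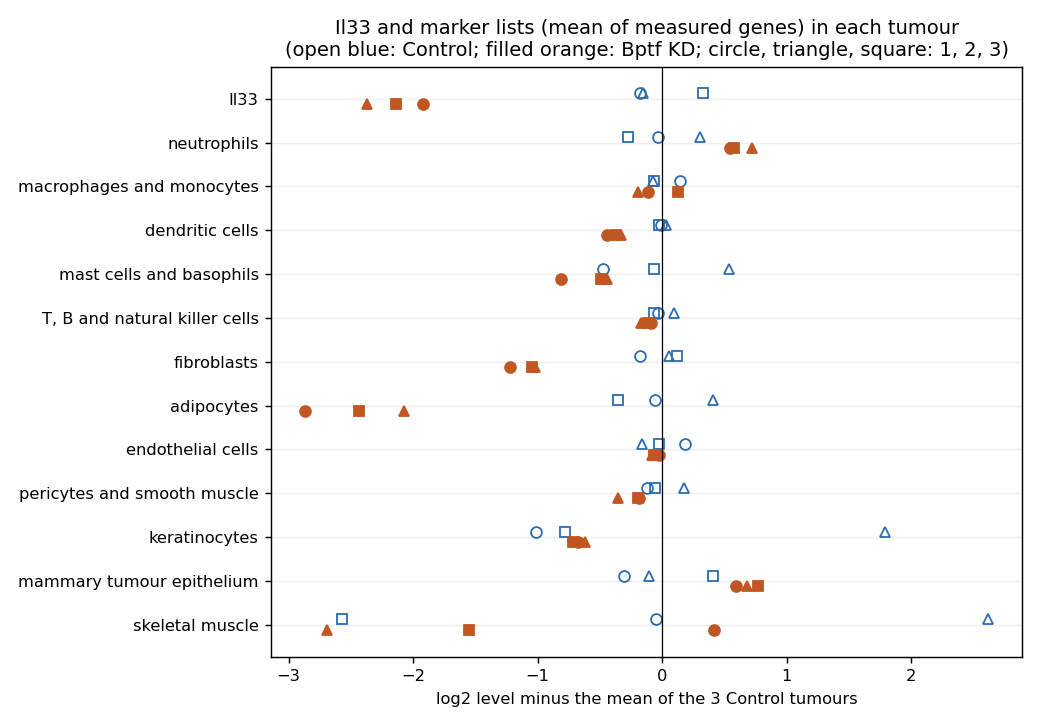
Log2 level of Il33 and the mean log2 level of each marker list, minus the mean of the 3 Control tumours (x axis), for Control (open blue) and Bptf KD (filled orange) tumours; circles, triangles and squares are tumours 1, 2 and 3. Il33, fibroblast, adipocyte, dendritic cell and pericyte levels lie lower in Bptf KD without overlap, and mammary epithelium and neutrophil levels higher. T, B and natural killer cell levels, from 4 mostly faint genes, barely part (lowest Control 6.53, highest Bptf KD 6.51). The neutrophil groups overlap once Lcn2 is left out of the list. Endothelial and macrophage levels overlap, and keratinocyte and muscle levels put the tumour labelled Control 2 to the right.

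The genes whose pattern over the 6 tumours came nearest to that of Il33 were Lbp, Serping1, Sfrp2, Sfrp4 and C1s1. Likeness was the root mean square distance between log2 values after each gene was centred on its own mean, and it rests on 6 tumours of 2 groups. Lbp, which binds bacterial lipopolysaccharide, lay 0.157 log2 units from Il33, whose own spread by that measure was 1.09. Its levels were 9.90, 10.21 and 10.60 in the Controls and 8.21, 8.19 and 8.11 in the Bptf KD tumours. As with Il33, Control 3 was the highest and Bptf KD lay below in each tumour. Serping1, the inhibitor of complement C1, lay 0.259 away with a difference of -1.92, and C1s1, a protease of that complex, 0.293 away with -2.45. The secreted Wnt antagonists Sfrp2 and Sfrp4 lay 0.262 and 0.288 away.

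For Il1b, with a spread of only 0.291, the nearest genes were Hyi, Coro1a, Il10rb, Arfgap3 and Gatd3a, at distances of 0.0390 to 0.0644. Coro1a, an actin regulator of leukocytes, gave 11.25, 11.73 and 11.02 in the Controls and 11.37, 11.66 and 11.65 in the Bptf KD tumours. It shared with Il1b the high level in the tumour labelled Control 2 and the low level in Control 3. With so small a spread, a gene that did not vary at all would lie only 0.291 from Il1b. The nearest genes, at 0.0390 to 0.0644, were picked as the shortest distances among all genes tested. Their lying closer than a flat gene was set by that choice, and no conclusion is drawn from it.

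**Figure D5:**
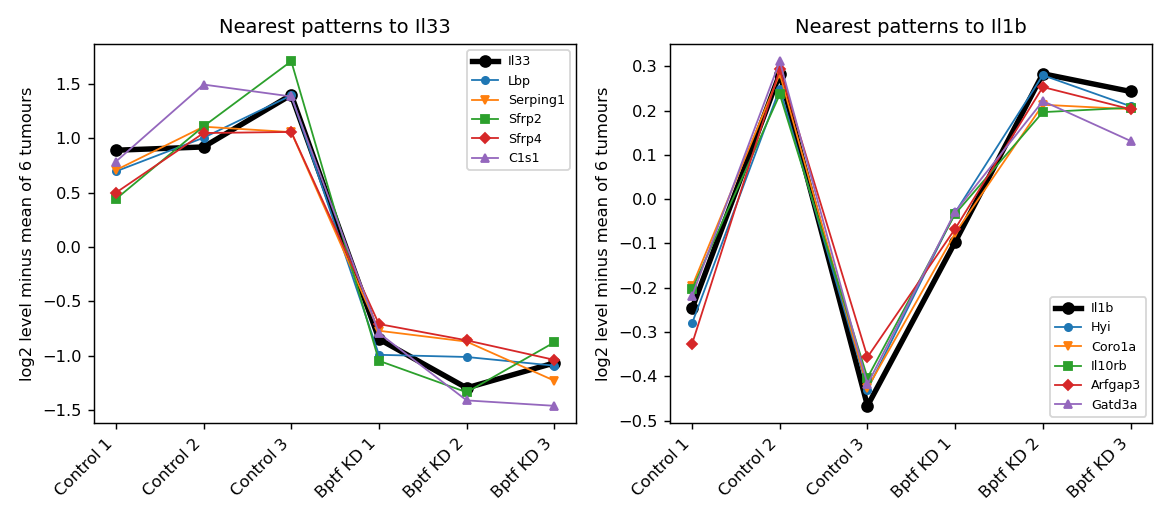
Log2 level minus the gene's mean over 6 tumours (y axis) for Il33 (left, black) and Il1b (right, black) with the 5 genes of the shortest distance to each (colours); lines only join the points of one gene. The left panel separates Control from Bptf KD, and the right panel is high in the tumour labelled Control 2 and low in Control 3, on an axis of smaller range.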

How the data were processed

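RNA (500 ng of total RNA per tumour) was measured on expression arrays, 1 per tumour. The authors deposited log2 values made with RMA, per the submitters' processing notes; no RMA version is named, and base 2 was inferred from their range of 2.98 to 15.17. Probe sets were named through GEO's platform annotation, with symbols matched by Entrez identifier to RefSeq (GRCm38.p6); 20380 of 22690 had 1 gene, 691 several and 1555 were unnamed here, and 64 were controls. The probe set with the highest mean stood for a gene, and those in the lowest 30% of means (below 6.09) were left out, which left 9258 genes. Groups were compared with limma 3.58.1 in R 4.3.3 (lmFit, eBayes, no covariate), with Benjamini-Hochberg adjustment over all genes. The procedure was tested on simulated data with independent noise and no outlying tumour, so that test does not vouch for the calls in these tumours. The number of arrays limits the precision, and whether tumours are separate mice is not given, so p-values measure only the spread between these samples.

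The members and lists were chosen with earlier results of these data known. Named genes are the members, Bptf, called genes of each pathway list or else its 4 with the smallest p, up to 3 bright genes of a marker list and the nearest patterns; others are marked as chosen later, or are markers. Alternatives changed the filter, the probe set, the normalisation, the variance model, array weights, the replicate block and the tumours. Promoters came from RefSeq.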

Additional observations from a re-analysis of the deposited data

How the results depend on the processing

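Il33 was lower in all 15 alternatives, with differences of -2.32 to -1.98, and was called in 12; leaving out each tumour in turn gave -2.26 to -1.98. Over all genes limma called 42 with the lowest 50% of probe sets left out, where Il1a and Il1rn were no longer tested among the members, and 1676 with array weights (limma gave a warning on their fit), against 0 to 412 when each tumour was left out. Members called were 4 with array weights (Il33, with Il1a at 1.04, Il1b at 0.50 and Il18 at 0.41), where 18.1% of all genes were called, and 0 to 1 with a tumour left out. Pathway genes called were 20 with array weights and 0 to 7 with a tumour left out. With the replicate number as a block, 2 members (Il33, and Il1a at 1.00) and 4 pathway genes were called. Same-numbered tumours correlated in their deviations at 0.01, 0.28 and 0.37, and 4 of 6 correlated best with their own number. The labels give a number per tumour and state no pairing, so whether the numbers pair tumours was not settled. Il1r1 ran from -0.04 without Bptf KD 3 to 0.195 without Bptf KD 1, and Il1f5 turned to 0.0019 with array weights. Sigirr, at 0.00, took either sign (-0.29 to 0.17); no other member, and none of the pathway genes or nearest patterns that the naming rule fixed, changed sign in the alternatives run. The causes were not tested. Levels near 6.09, such as those of Il1a, carry no detection call.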

Other observations

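Of the markers read beside the family, those of dendritic and of endothelial cells each held 1 gene that limma called lower. Cd209a, a lectin of monocyte-derived dendritic cells, gave 7.36, 7.29 and 7.31 in the Controls and 6.16, 6.06 and 6.14 in the Bptf KD tumours, a difference of -1.20 (limma adjusted p = 0.00990), with the Bptf KD levels near the dim level of 6.09. Ccr7, the homing receptor of mature dendritic cells, differed by -0.74 and Flt3 by -0.59. Each was without overlap and neither was called (limma adjusted p = 0.0682 and 0.214). Of the 6 dendritic markers measured, 4 were negative and 2 positive. Tek, the angiopoietin receptor, gave 6.99, 6.79 and 7.06 against 5.65, 5.66 and 5.63, a difference of -1.30 (limma adjusted p = 0.00990), and its Bptf KD levels were dim. The endothelial genes Cdh5 and Flt1 differed by 0.18 and 0.27, and Vwf and Kdr by -0.98 and -0.24. None of these was called, though Vwf was without overlap (limma adjusted p = 0.130). Of the 12 endothelial markers measured, 7 were positive and 5 negative. These genes were chosen after their values were seen.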
